A study of Mus musculus with 25 samples.

Results

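Neurons sorted from the sensorimotor cortex of wild-type (WT) mice after spinal cord injury (SCI) were compared between an early and a late time, day 7 against day 1. The 6 libraries were chosen by their labels alone (WT genotype, SCI, 1 or 7 days), 3 at each day, out of 25 libraries in the series, and sham libraries entered neither mean. Mice of every group (C57BL/6, young adults of 4 to 6 weeks) were homozygous both for floxed Rest and for a floxed-stop TdTomato allele. WT mice were given a GFP vector (AAV-Syn-GFP) driven by the neuronal synapsin promoter, which leaves the floxed Rest intact, and GFP-positive cells were sorted after a complete crush at thoracic level 10. REST cKO mice were given Cre instead, and their 5 libraries at days 1 and 7 serve only to show whether the same genes differ between the days. All 25 libraries entered the fit that estimates the spread. Each library came from a small pool of sorted cells whose axons were not traced, so that neurons with and without a cut axon are mixed, and reads came from the 3′ ends of transcripts. The labels do not tie libraries to animals, so errors measure the spread between libraries, with n = 3 at each day.

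Cortical neurons that project to the spinal cord lose their axon ending at the crush, far from the cell body, and do not regrow it in the adult. In peripheral neurons, axotomy switches on transcription factors such as Jun, Atf3, Sox11, Smad1 and Stat3 and, with them, cytoskeletal and membrane proteins of the growing axon. REST is a zinc finger repressor that silences many genes of synapses, channels and axons outside neurons and recruits histone-modifying corepressors.

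Values are log2 normalized counts and are always given in the order of replicates 1, 8 and 11 for day 1 and replicates 4, 7 and 12 for day 7. Replicates 1, 8, 4 and 7 belong to batch 1 and replicates 11 and 12 to batch 2. Day 1 replicate 1 is labelled male and the other 5 libraries female, so that sex was not balanced. The libraries did not separate by day. Across the 9931 genes with a symbol, Pearson's r between libraries was 0.345 to 0.551 within day 1, 0.407 to 0.507 within day 7 and 0.359 to 0.592 between the days. The highest value joined day 1 replicate 11 and day 7 replicate 4. Genes are not independent replicates, and these values only describe the libraries.

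Low values were more frequent at day 7. Values under -2 made up 12.3%, 5.35% and 4.29% of genes in the day 1 libraries and 11.1%, 17% and 12.2% in the day 7 libraries, and the ranges of both days overlapped. Library medians were 0.77, 1.11 and 0.82 at day 1 and 0.89, 0.51 and 0.76 at day 7. Sequencing depth per library was not analysed here. Among sex-linked genes, Xist, expressed from the inactive X chromosome, was 0.50, 2.18 and 2.21 at day 1 and 0.62, 2.44 and 0.26 at day 7, and the Y-linked Ddx3y was 0.34, -1.13 and -0.41 at day 1 and 0.50, -0.87 and 2.20 at day 7. Eif2s3y, also Y-linked and named after its values were seen, was 2.18, -3.58 and -3.69 at day 1 and -0.77, -3.47 and -1.52 at day 7 and was highest in the library labelled male. Ddx3y was highest and Xist lowest in day 7 replicate 12, labelled female, and in day 7 replicate 4, also labelled female, Xist was as low as in the male library, so these genes did not follow the labelled sex. Without replicate 12, limma called 0 genes, with 844 at an unadjusted p under 0.05, and without replicate 4 it called 10, with 1037 at that p.

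The values of 140 genes (1.41%) differed from all others in a way that bears on several genes below. The authors regressed the first 2 principal components of the sequencing metrics out of the values, and in the other 9791 genes the correlation with both components was at most 3.94e-10. In the 140 genes it was between 0.000621 and 0.369. These genes include Rest, Jun, Atf3, Sox11, Smad1, Stat3 and Egr1, 7 of 21 injury and regeneration transcription factors, 6 of 17 glutamate receptors and 5 of 10 GABA receptors, and 0 of 42 potassium channels. For 71 of them, a change of sign or of a whole step (1 to 3) in at most 3 of the 25 values brought both correlations to 0 within a tolerance of 1e-07, with 1 solution for each gene, and 46 needed a change in 1 value only. Of the 104 values so identified, 101 lay in day 3 and day 7 libraries and 3 in sham and day 1 libraries. In the 6 libraries there were 38, with 24 in day 7 replicate 4, 6 in replicate 7, 7 in replicate 12 and 1 in day 1 replicate 1. For the other 69 genes, Rest, Jun, Atf3, Sox11, Smad1 and Stat3 among them, no such change was found. A regression on the components leaves no correlation with them, so some values of these genes were changed after that step or did not pass through it, in the table or in the copy used here, and which was not tested. The values of Rest, Jun, Atf3, Sox11, Smad1 and Stat3 are therefore printed as supplied, with the doubt that single values may not be the original ones, and should be compared with the original table before they are relied on. Each gene named below that correlates with a component is said to do so, and where a solution touches a library of the comparison the result with it is given as well.

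No gene passed the test between the days. In limma, 0 of 9931 genes (0%) had an adjusted p under 0.1, and the smallest adjusted p was 0.268. At an unadjusted p under 0.05, 223 genes (2.25%) had higher and 611 (6.15%) lower values at day 7. The 3 values of each day did not overlap in 390 genes higher (3.93%) and 731 genes lower (7.36%) at day 7. The fitted change, which allows for the 2 components and can therefore differ from the difference of the means, had a median of -0.23 over all genes and a median standard error of 1.09. The first component was -8.58, -3.48 and -12.33 at day 1 and -2.60, -4.19 and 10.42 at day 7. It was thus not balanced between the days, though their ranges overlapped. The part of this in the values and in the fitted changes was not tested.

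The balance of higher and lower genes depended on scaling. After quantile normalization, which gives every library the same distribution, the median moved from -0.23 to 0.02, and at an unadjusted p under 0.05 there were 369 genes higher and 361 lower, so that the share of lower genes went from 73.3% to 49.5%. Genes without overlap went to 545 higher and 504 lower, which turned their balance. Where a list median over all members and all 6 libraries is given below, it is given on both scalings. It is to be read against -0.23 as deposited and 0.02 after quantile normalization for all genes. Other medians, such as those of REST cKO neurons or of 1 batch, are as deposited only. Counts in the lists are to be read against 2.25% of all genes higher and 6.15% lower at an unadjusted p under 0.05, and 3.93% and 7.36% without overlap, all as deposited. Of the genes without overlap that were lower at day 7, 48.6% had a day 7 value under -2, against 29.0% of all genes, and of those that were higher, 15.1% had a day 1 value under -2, against 18.5% of all genes. The part of low values in these counts was not tested. With the solutions applied to the 71 genes, an alternative chosen after seeing the data, limma called 0 genes and 828 had an unadjusted p under 0.05.

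Leaving out either of 2 day 7 libraries let genes pass. Without day 7 replicate 4, 10 genes had an adjusted p under 0.1 in limma (0.0275 to 0.0895), and all 10 had lower values in the 2 remaining day 7 libraries. They were Hsp90aa1, Fnip1, C1rb, Prdx2, Fmc1, Paox, Elmod1, Msrb1, Tsc22d2 and Dennd1a, named after their values were seen. Hsp90aa1, a cytosolic chaperone, was 2.77, 3.27 and 3.43 at day 1 and 2.95, 1.20 and 1.71 at day 7, and replicate 4 lay among the day 1 values. Fnip1, a partner of the nutrient sensor folliculin, was 2.56, 2.23 and 0.55 at day 1 and 1.70, -3.02 and -1.93 at day 7, again with replicate 4 among the day 1 libraries. C1rb, a complement protease, was 2.60, 1.41 and 2.20 at day 1 and 2.29, -3.07 and -1.85 at day 7, the same pattern. Without day 7 replicate 7, 1 gene passed (adjusted p of 0.0679), Rag2, which encodes a recombinase of lymphocytes and was likewise named after its values were seen. It was 1.75, 1.93 and 1.72 at day 1 and -2.72, 1.86 and -1.54 at day 7, so that replicate 7 lay among the day 1 values and the other day 7 libraries below them.

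**Figure D1:**
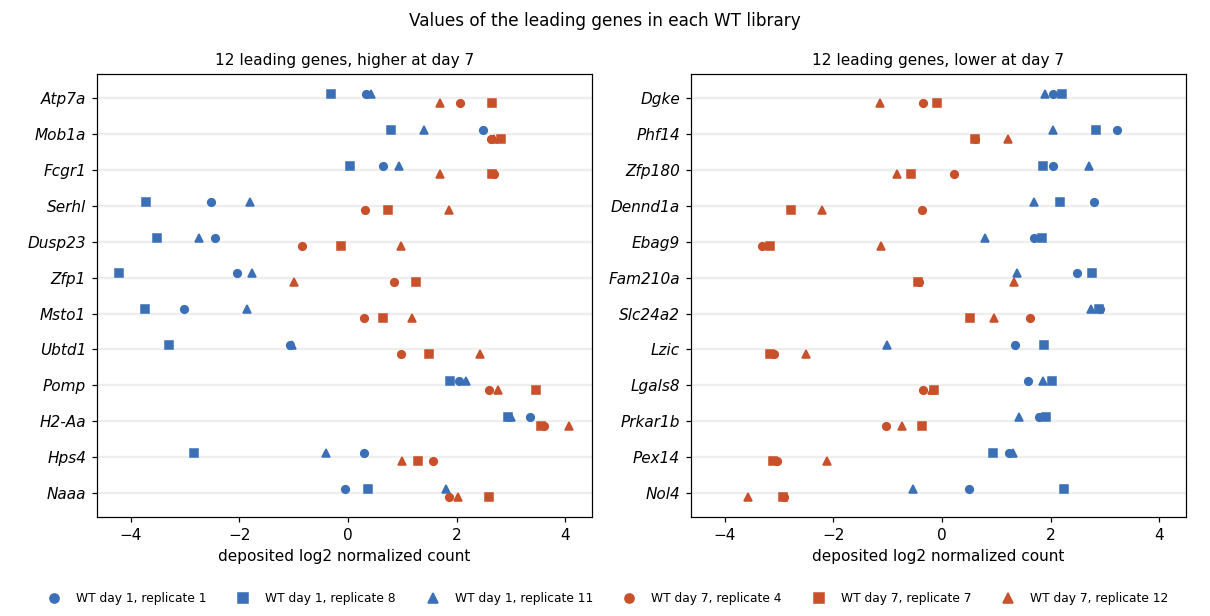
Deposited log2 normalized counts (x axis) of the 12 genes with the smallest p in each direction among genes whose days do not overlap (y axis), in 3 WT libraries at day 1 (blue) and 3 at day 7 (orange), with a marker shape for each library. The choice of genes fixes the separation of the colours, the distance differs between genes, and in Naaa and Fam210a the nearest libraries of the 2 days almost touch.

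The genes that led among those higher at day 7 were chosen for not overlapping, so their separation is a description. Atp7a, a copper-transporting ATPase (chromosome X, 106027276 to 106124926), was 0.33, -0.31 and 0.42 at day 1 and 2.07, 2.64 and 1.69 at day 7. Its fitted change was 2.62 ± 0.64 (SE) with an adjusted p of 0.268 in limma, the smallest in this direction. Fcgr1, the high-affinity receptor for immunoglobulin G on macrophages and microglia (chromosome 3, 96282909 to 96293969), was 0.65, 0.04 and 0.93 at day 1 and 2.69, 2.65 and 1.69 at day 7, a fitted change of 2.09 ± 0.56 (SE). H2-Aa, the alpha chain of a class II antigen-presenting molecule (chromosome 17, 34282744 to 34287823), was 3.36, 2.95 and 2.99 at day 1 and 3.61, 3.56 and 4.08 at day 7, a fitted change of 0.64 ± 0.19 (SE). In H2-Aa all libraries held high values and the days were close, while in Atp7a the gap between the days exceeded the range within either day.

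Other genes in this direction were chosen by the same rule. Pomp, which helps to assemble the proteasome, was 2.05, 1.89 and 2.17 at day 1 and 2.60, 3.46 and 2.77 at day 7, a fitted change of 1.31 ± 0.38 (SE). Naaa, a lysosomal hydrolase of fatty acid amides, was -0.06, 0.37 and 1.80 at day 1 and 1.86, 2.60 and 2.03 at day 7, and day 1 replicate 11 was within 0.06 of the nearest day 7 library. Mob1a, an adaptor of Hippo pathway kinases, was 2.49, 0.80 and 1.40 at day 1 and 2.63, 2.83 and 2.68 at day 7, with day 1 replicate 1 close to all 3 day 7 libraries. Hps4, which acts in the making of lysosome-related organelles, was 0.29, -2.84 and -0.40 at day 1 and 1.57, 1.28 and 1.00 at day 7. Its day 1 values spread over more than 3 on the log2 scale. In Serhl, Dusp23, Zfp1, Msto1 and Ubtd1 every day 1 value was under -1, and fitted changes were 4.45 ± 1.20 (SE), 4.08 ± 1.15 (SE), 4.26 ± 1.21 (SE), 4.34 ± 1.24 (SE) and 4.24 ± 1.23 (SE).

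Genes that led among those lower at day 7 were chosen in the same way. Dgke, a diacylglycerol kinase (chromosome 11, 89035179 to 89066850), was 2.04, 2.21 and 1.90 at day 1 and -0.35, -0.10 and -1.14 at day 7. Its fitted change was -2.83 ± 0.62 (SE), with an adjusted p of 0.268 in limma. Slc24a2, a potassium-dependent sodium and calcium exchanger of neurons (chromosome 4, 86983124 to 87230477), was 2.90, 2.89 and 2.74 at day 1 and 1.63, 0.51 and 0.95 at day 7, a fitted change of -2.35 ± 0.55 (SE). The day 1 values of Slc24a2 lay within 0.2 of each other and the day 7 values were all at least 1 lower. Nol4, a nucleolar protein expressed mainly in neurons, was 0.49, 2.25 and -0.54 at day 1 and -2.91, -2.92 and -3.57 at day 7, a fitted change of -4.50 ± 1.10 (SE).

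Phf14, a reader of histone tails, was 3.22, 2.84 and 2.04 at day 1 and 0.61, 0.62 and 1.21 at day 7, and Pex14, part of the import machinery of peroxisomes, was 1.23, 0.94 and 1.31 at day 1 and -3.03, -3.11 and -2.11 at day 7. Dennd1a, an exchange factor for a Rab GTPase of endocytosis, was 2.81, 2.17 and 1.69 at day 1 and -0.36, -2.78 and -2.20 at day 7. In Dennd1a and Ebag9, 2 of the day 7 values were under -2, and in Pex14, Lzic and Nol4 all 3 were. Lgals8, a galectin that detects damaged vesicles, was 1.59, 2.03 and 1.87 at day 1 and -0.34, -0.15 and -0.19 at day 7, with little spread at either day. Ebag9 was 1.69, 1.84 and 0.78 at day 1 and -3.32, -3.17 and -1.13 at day 7, a fitted change of -5.47 ± 1.24 (SE), and differed by -1.91 within batch 2. Lzic was 1.34, 1.88 and -1.01 at day 1 and -3.09, -3.16 and -2.50 at day 7, a fitted change of -5.22 ± 1.27 (SE), and differed by -1.49 within batch 2. In Zfp180 the fitted change was -2.90 ± 0.64 (SE), and in Fam210a -2.79 ± 0.63 (SE). Fam210a was 2.49, 2.76 and 1.39 at day 1 and -0.43, -0.43 and 1.33 at day 7, so that the batch 2 libraries differed by -0.06 and the difference lay in batch 1.

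Prkar1b, a regulatory subunit of protein kinase A of the brain (chromosome 5, 139017306 to 139150001), was 1.79, 1.92 and 1.43 at day 1 and -1.03, -0.37 and -0.74 at day 7, and its values correlate with a component. The only change that brought the correlation to 0 turned the value of day 7 replicate 4 from -1.03 to 1.03. With it the groups still did not overlap, and the fitted change went from -2.49 ± 0.61 (SE) to -1.79 (adjusted p of 0.465 in limma). Among the other genes lower at day 7 that are named here, Mapkapk2 and Cacna2d1 were also touched and are described with their lists. Over all genes, 34 had such a change in the 6 libraries, and most of them are not named.

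The direction of these 24 genes was also looked at in REST cKO neurons, whose libraries entered the fit only through the spread and the components. In REST cKO neurons the fitted change between the same days was above 0 in 5 of the 12 genes higher in WT, and below 0 in 5 of the 12 genes lower in WT. Over all genes the change in REST cKO neurons was above 0 in 40.3% and below 0 in 59.7%. Among all genes without overlap it was above 0 in 31.8% of those higher in WT and below 0 in 54.3% of those lower in WT. REST cKO neurons had 2 libraries at day 1 and 3 at day 7. Those of day 7 were all labelled male, while the WT libraries of day 7 were all labelled female.

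The transcription factors of peripheral regeneration overlapped between the days. All correlate with a component. Jun, a subunit of AP-1, was 2.34, 2.25 and 2.37 at day 1 and 2.29, 2.53 and 2.20 at day 7, and its means differed by 0.02 (0.12 within batch 1 and -0.17 within batch 2) where the fitted change was 0.40 ± 0.33 (SE). Stat3, which carries signals of the interleukin 6 family, was 2.79, 2.27 and 2.71 at day 1 and 2.76, 3.12 and 2.40 at day 7, a difference of means of 0.17 and a fitted change of 0.34 ± 0.31 (SE). Atf3, a stress-induced partner of Jun, was -3.10, 1.02 and 0.78 at day 1 and -0.11, -1.31 and -1.64 at day 7, spread over more than 4 at day 1. Sox11, a factor of growing neurons, was -1.67, -1.61 and -0.12 at day 1 and -0.91, -1.16 and -3.98 at day 7, and day 7 replicate 12 was the lowest. Smad1, which carries signals of bone morphogenetic proteins, was -2.28, -1.19 and -2.40 at day 1 and -3.76, -3.26 and -2.11 at day 7, where only replicate 12 of day 7 lay among the day 1 values. In all 5 genes the days overlapped, and the smallest adjusted p was 0.774 for Jun in limma.

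Rest itself had its 2 highest values at day 7. It was -1.35, 0.71 and 0.27 at day 1 and 0.26, 2.30 and 2.74 at day 7, with the days overlapping between 0.26 at day 7 and 0.71 at day 1, and its values correlate with a component. The means differed by 1.89 (1.60 within batch 1 and 2.47 within batch 2), and the fitted change, which allows for the components that Rest correlates with, was 1.00 ± 1.02 (SE) (adjusted p of 0.825 in limma). In REST cKO neurons Rest was -0.43 and -0.40 at day 1 (replicates 19 and 25) and -1.21, -0.33 and -0.97 at day 7 (replicates 2, 13 and 26). Whether 3′ reads lie in the deleted part of the gene is not given in the sources used here. Egr1, an immediate early factor, was 2.08, 2.43 and 1.67 at day 1 and 1.95, 2.27 and 2.44 at day 7 and correlates with a component. Changes of a whole step in 3 libraries set that correlation to 0, among them day 1 replicate 1, from 2.08 to 1.08, and with them the fitted change went from 0.40 ± 0.39 (SE) to 0.76. Gap43, a membrane protein of growth cones, was 2.89, 1.95 and 0.78 at day 1 and 1.25, 0.40 and 0.78 at day 7, a fitted change of -1.33 ± 0.73 (SE), and the days overlapped.

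Of 28 immediate early genes measured, 0 were higher and 2 lower at an unadjusted p under 0.05 (0 and 0 after quantile normalization). Their median was -0.18, against -0.23 over all genes, and its sign turned to 0.08 after quantile normalization, against 0.02 over all genes. It also turned sign when 1 library was left out (-0.26 to 0.16). Fos, a partner of Jun in AP-1, was 2.44, 2.43 and 1.82 at day 1 and 1.74, -0.16 and 1.76 at day 7, with replicate 7 the lowest and replicates 4 and 12 just under the day 1 range. Arc, which marks recent synaptic activity, was -0.10, 1.35 and -1.23 at day 1 and 0.71, -2.95 and -3.65 at day 7, and Egr2 was -2.80, 0.87 and -1.24 at day 1 and 1.29, 2.35 and 0.22 at day 7, in the opposite direction, both with overlap. Of 21 injury and regeneration transcription factors 0 were higher or lower at that p, and their median was 0.02 (0.24 after quantile normalization). It lay between -0.19 and 0.32 when each library was left out in turn. Klf6, a Krüppel-like factor of axon growth, did not overlap between days at 1.27, 1.91 and 2.03 at day 1 and 2.19, 2.28 and 2.21 at day 7, and Trp53 was -3.16, -0.63 and 1.86 at day 1 and 0.75, 2.15 and 1.83 at day 7 with overlap.

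Of 34 growth-associated genes measured, 6 were lower and 0 higher at an unadjusted p under 0.05 (5 and 0 after quantile normalization). Without overlap, 6 were lower and 1 higher. All genes, too, were lower more often than higher as deposited (611 against 223 and 731 against 390), but not after quantile normalization (361 against 369 and 504 against 545). The median of the list was -0.95, against -0.23 over all genes (-0.66 against 0.02 after quantile normalization, and -1.09 within batch 1 and -0.50 within batch 2). It ran from -1.20 to -0.59 when each library was left out. Basp1, a membrane protein of growth cones, was 3.04, 2.51 and 2.24 at day 1 and 1.49, 1.29 and 1.57 at day 7, a fitted change of -1.39 ± 0.37 (SE) with an adjusted p of 0.319 in limma. Vav2, an exchange factor for small GTPases, was 0.30, 1.10 and 1.31 at day 1 and -0.64, -0.68 and -0.62 at day 7. Both had all 3 day 7 libraries below all day 1 libraries.

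Mapkapk2 and Cacna2d1 of the same list correlate with a component. Mapkapk2, a kinase under p38, was 1.38, 2.35 and 2.18 at day 1 and 0.86, 0.49 and 0.66 at day 7, and a step of 1 in day 7 replicate 4, from 0.86 to 1.86, set its correlation to 0. With it the days overlapped, and the fitted change went from -1.43 ± 0.40 (SE) to -1.09. Cacna2d1, a calcium channel subunit, was 1.53, 2.24 and -0.74 at day 1 and -2.70, -2.99 and -1.49 at day 7, and the change turned day 7 replicate 12 from -1.49 to 1.49. The days then overlapped, and the fitted change went from -3.86 ± 1.14 (SE) to -2.98.

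Receptors and inhibitors that limit axon growth had a median of -0.37 over 18 genes (-0.20 after quantile normalization), with 0 at an unadjusted p under 0.05 (1 lower after it). It was -0.55 within batch 1 and 0.02 within batch 2, and ran from -0.50 to -0.16 when each library was left out. Ptprf, a receptor phosphatase, did not overlap at 2.66, 1.43 and 0.39 at day 1 and -0.05, 0.02 and -1.01 at day 7, and Ptprs, which binds chondroitin sulfate proteoglycans, was 2.47, 2.01 and 1.77 at day 1 and 0.85, -0.12 and 1.95 at day 7 with overlap in replicate 12. In the PI3K and mTOR pathway, 3 of 28 genes were lower and 0 higher at that p (2 and 0 after quantile normalization), with a median of -0.61 (-0.26 after quantile normalization, and -0.66 within batch 1 and -0.10 within batch 2). Without each library in turn it lay between -0.70 and -0.34. Ddit4, an inhibitor of mTOR complex 1, was 2.58, 2.64 and 2.06 at day 1 and 1.74, 2.34 and 0.69 at day 7, and Rps6kb1, the kinase downstream of it, was 0.72, 1.66 and 2.19 at day 1 and 0.09, 0.65 and 0.99 at day 7, both with overlap. Mlst8, a subunit of the mTOR complexes, was 2.37, 1.29 and 0.41 at day 1 and -0.25, -3.13 and -1.49 at day 7 and did not overlap, but it correlates with a component and no change was found that set this to 0.

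Among lists of gene function, the lowest medians as deposited were in genes of neuronal signalling, while after quantile normalization growth-associated genes lay below some of these lists. Neuronal genes with a known REST element had a median of -1.28 over 22 genes, against -0.23 over all genes (-0.60 against 0.02 after quantile normalization). At an unadjusted p under 0.05, 5 were lower and 0 higher, and after quantile normalization 0 were lower and 0 higher. Cplx1, complexin of the release machinery, was 0.48, 2.19 and -0.66 at day 1 and -2.97, -2.75 and -2.24 at day 7. Scn2a, a sodium channel of the axon initial segment, was 1.84, 2.57 and 1.37 at day 1 and 0.65, -2.83 and 1.01 at day 7. In both genes all day 7 libraries lay below all day 1 libraries, and replicate 7 of Scn2a stood far below the other 2. Without each library in turn, the median of the list lay between -1.64 and -0.83. In REST cKO neurons it was -0.17.

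Receptors of transmitters also had medians below that of all genes. Glutamate receptors had a median of -1.01 over 17 genes (-0.30 after quantile normalization), with 4 lower at an unadjusted p under 0.05 (2 after quantile normalization). It was -1.31 within batch 1 and -0.07 within batch 2, and ran from -1.31 to -0.42 when each library was left out. Grid1 was 1.80, 1.09 and -0.09 at day 1 and -0.64, -3.13 and -2.81 at day 7 and Grm2, a presynaptic receptor that restrains release, was 0.01, 1.22 and -1.56 at day 1 and -3.32, -3.25 and -2.38 at day 7. Both correlate with a component, and the solutions lay in day 3 libraries. Without the 6 genes that correlate the median was -0.46. GABA receptors had a median of -1.21 over 10 genes (-0.89 after quantile normalization), with 1 lower at that p on both scalings. It was -1.38 within batch 1 and -0.43 within batch 2, and -0.94 without the 5 genes that correlate with a component. Gabra2 was 1.71, 1.03 and 0.75 at day 1 and -0.72, -1.10 and -1.14 at day 7, without overlap, and correlates with a component, with no change found that set this to 0. Gabrb1, which does not correlate, was 1.06, 2.23 and 0.71 at day 1 and -0.04, 0.52 and 0.53 at day 7.

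Ion channels had medians close to those of the receptors. Potassium channels had a median of -1.27 over 42 genes (-0.84 after quantile normalization), with 5 lower and 0 higher at an unadjusted p under 0.05 and 11 lower and 1 higher without overlap. After quantile normalization 1 was lower and 1 higher at that p. The median was -1.08 within batch 1 and -0.66 within batch 2, and none of the genes correlated with a component. Kcnj3, a G protein-gated channel, was 1.47, 1.34 and -0.03 at day 1 and -1.46, -3.40 and -1.29 at day 7, and its 3 day 7 values were all below the day 1 values. Sodium, calcium and HCN channels had a median of -1.19 over 20 genes (-0.53 after quantile normalization), with 4 lower at that p (1 after quantile normalization). Scn8a was 2.19, 2.32 and 2.43 at day 1 and 1.82, 0.51 and 0.69 at day 7 and Cacna1a, the P/Q-type calcium channel of nerve endings, was 0.49, 1.04 and -0.04 at day 1 and -1.09, -2.97 and -2.32 at day 7. Both did not overlap. The median of this list was -1.08 within batch 1 and -0.31 within batch 2, and ran from -1.28 to -0.22 when each library was left out. It was -0.58 without the 3 genes that correlate with a component.

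Vesicle and guidance genes had smaller medians than receptors and channels as deposited. This order did not hold after quantile normalization, where glutamate receptors had -0.30, nor without the genes that correlate with a component. Synaptic vesicle and exocytosis genes had -0.59 over 49 genes (-0.32 after quantile normalization), with 7 lower and 0 higher at an unadjusted p under 0.05 (3 and 0 after quantile normalization). The median ran from -0.62 to -0.27 when each library was left out. Pclo, a scaffold of the active zone, was 1.18, 2.48 and 2.24 at day 1 and -0.12, 0.32 and 0.41 at day 7, and Syt13 was 3.25, 2.71 and 1.97 at day 1 and 1.86, -2.57 and 0.30 at day 7, with replicate 7 far below the others and no overlap in either gene. Axon guidance ligands and receptors had -0.46 over 34 genes (-0.24 after quantile normalization), with 2 higher and 6 lower at that p (2 and 2 after quantile normalization), and from -0.76 to -0.26 when each library was left out. Slit2, a repellent ligand, was 1.16, 0.92 and -1.44 at day 1 and -3.23, -2.99 and -4.07 at day 7, and Plxna1, a semaphorin receptor, was -2.31, -0.40 and -0.57 at day 1 and 1.53, 2.28 and -1.21 at day 7, higher at day 7 in batch 1 and lower in batch 2.

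Among stress responses, genes of unfolded proteins and heat shock had a median of 0.04 over 34 genes (0.13 after quantile normalization), with 1 higher and 3 lower at an unadjusted p under 0.05 (0 and 2 after quantile normalization). The median was -0.02 within batch 1 and -0.18 within batch 2, and ran from -0.41 to 0.03 when each library was left out. Herpud1, which helps to degrade proteins of the endoplasmic reticulum, was 2.95, 3.03 and 2.87 at day 1 and 2.42, 2.10 and 2.32 at day 7, and Chac1, which breaks down glutathione, was 3.16, 0.64 and -1.41 at day 1 and -3.16, -2.92 and -2.26 at day 7. Both did not overlap. Ppp1r15a, which restores translation after stress, was -1.91, -3.68 and -0.15 at day 1 and 0.28, -0.89 and -0.54 at day 7, in the other direction. Genes of oxidative stress defence had a median of -0.39 over 33 genes, and -0.41 after quantile normalization against 0.02 over all genes, with 3 lower and 0 higher at that p (3 and 2 after quantile normalization). Prdx2, a peroxiredoxin, was 2.64, 2.07 and 1.50 at day 1 and 1.04, -3.16 and -2.52 at day 7, and Gss, which makes glutathione, was -0.58, 1.06 and -0.87 at day 1 and -3.21, -3.23 and -3.01 at day 7, with replicate 4 the highest day 7 library in Prdx2.

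Apoptosis and survival genes had a median of -0.46 over 27 genes (-0.12 after quantile normalization), 0.03 within batch 1 and -1.19 within batch 2, with 2 lower and 0 higher at an unadjusted p under 0.05 (1 and 1 after quantile normalization). Its median ran from -0.85 to -0.13 when each library was left out. Dapk1, a death-associated kinase, was 2.87, 2.31 and 2.25 at day 1 and 2.40, 0.23 and -0.65 at day 7, and Pmaip1, a pro-apoptotic BH3 protein, was 0.11, 1.07 and 0.45 at day 1 and -0.07, -0.04 and -1.89 at day 7, and only Pmaip1 did not overlap. Interferon and cytokine genes had a median of 0.24 over 40 genes (0.35 after quantile normalization), with 2 higher and 0 lower at an unadjusted p under 0.05 and 5 higher and 1 lower without overlap. After quantile normalization 8 were higher at that p. The median lay between 0.11 and 0.32 without each library in turn. Jak2 was 0.24, -0.29 and 1.32 at day 1 and 1.62, 1.55 and 2.79 at day 7 and Stat2 1.38, 0.25 and 1.30 at day 1 and 1.71, 2.68 and 1.98 at day 7, both without overlap. Ifit3, an interferon-induced gene, was 0.99, 0.31 and 2.39 at day 1 and 2.33, 2.53 and 1.43 at day 7, with overlap. Cholesterol synthesis genes had a median of -0.12 over 22 genes, which turned to 0.06 after quantile normalization, with 0 at that p, and which ran from -0.25 to 0.44 when each library was left out. Sqle, a rate-controlling oxygenase, was 0.86, 0.66 and 0.08 at day 1 and -0.87, -3.44 and -0.61 at day 7, without overlap.

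REST and its corepressors had a median of 0.02 over 17 genes (0.21 after quantile normalization), with 1 higher and 1 lower at an unadjusted p under 0.05. The median was 0.30 within batch 1 and -0.68 within batch 2, and ran from -0.51 to 0.40 when each library was left out. Rcor1, which bridges REST to histone deacetylases, was 1.30, 1.14 and 1.27 at day 1 and 2.07, 2.20 and 2.16 at day 7, with all day 7 libraries above all day 1 libraries. Kdm1a, a histone demethylase of the same complex, was 2.09, 1.50 and 0.56 at day 1 and 0.29, -3.26 and -0.99 at day 7, with all of them below. Genes of ribosomes and energy supply were nearly level. Cytoplasmic ribosomal proteins had a median of 0.07 over 81 genes (0.10 after quantile normalization), with 0 at an unadjusted p under 0.05 (2 higher and 1 lower after it). Their median was 0.19 within batch 1 and -0.15 within batch 2, and ran from -0.02 to 0.13 when each library was left out. Oxidative phosphorylation had 0.12 over 88 genes (0.18), with 1 higher and 3 lower (3 and 1 after it). Rpl6 was 2.75, 2.85 and 3.12 at day 1 and 3.29, 3.23 and 3.55 at day 7 and Ndufa8, a subunit of complex I, was 1.69, 1.00 and 0.90 at day 1 and 0.53, -3.23 and -0.84 at day 7. Ndufaf8, also of the oxidative phosphorylation list, was 0.09, -0.76 and 0.30 at day 1 and 1.69, 0.82 and 2.06 at day 7, higher without overlap. Proteasome subunits had a median of 0.01 over 37 genes (0.18), with 0 at that p, and turned sign when 1 library was left out (-0.08 to 0.14).

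**Figure D2:**
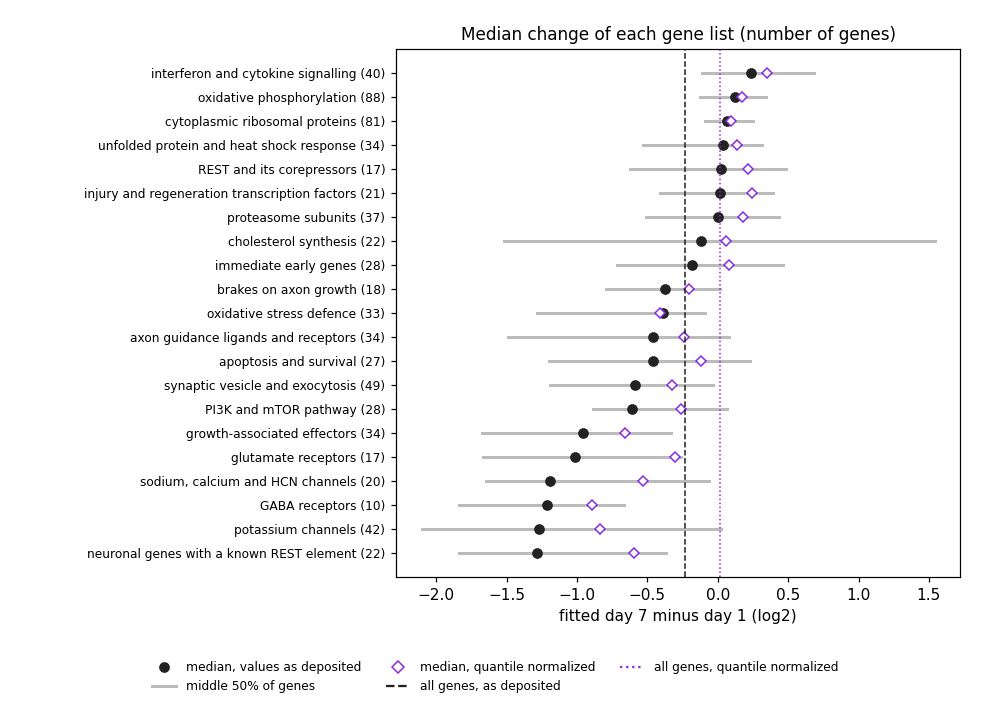
Median fitted change from day 1 to day 7 (x axis, log2; values below 0 are lower at day 7) of each gene list (y axis, number of genes in brackets), as deposited (black, with the middle 50% of genes as a grey bar) and after quantile normalization (open diamonds), with the medians of all genes as lines. Neuronal genes with a REST element, channels and receptors had the lowest of these medians as deposited, and quantile normalization moved most lists up.

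Markers of other cell types were measured in the same libraries. In bulk samples fewer cells of a type and less RNA per cell cannot be told apart. Neuronal markers were present (13 of 14 measured), with a mean of 1.44, 2.11 and 1.77 at day 1 and 1.60, 1.16 and 0.59 at day 7, most abundantly Meg3, and 0 at an unadjusted p under 0.05. Their median change was -0.65 (-0.43 after quantile normalization), with 11 of 13 below 0, against 5919 of 9931 over all genes. It lay between -0.79 and -0.27 without each library in turn. The part of this in the lower values of neuronal lists was not tested. Snap25, a vesicle fusion protein, was 2.00, 3.35 and 3.13 at day 1 and 2.07, 2.96 and 1.52 at day 7, with overlap. The mean over all genes was 0.59, 0.83 and 0.68 at day 1 and 0.51, 0.33 and 0.35 at day 7, itself without overlap, and list means are to be read against it. Excitatory markers (7 of 8) had means of 1.17, 1.84 and 0.87, and 0.74, -0.18 and 0.47, without overlap between days, and inhibitory markers (6 of 13) 0.11, 0.53 and -0.80, and -0.64, -1.66 and -0.54. Markers of layer 5 and corticospinal neurons (8 of 13) had means of 0.60, 0.75 and -0.08, and 0.50, -0.24 and -0.41, with Bcl11b the most abundant, and Fezf2 and Crym not among the genes analysed here. Upper layer markers (7 of 10) had 1.02, 0.91 and 0.51, and -0.79, -0.28 and -0.28, and layer 6 markers (3 of 7) 0.54, 0.62 and 0.86, and 0.46, -0.35 and 0.52. Neither list overlapped between days, and neither did the mean over all genes. The upper layer median change was -1.57 (-0.74 after quantile normalization), and ran from -1.83 to -0.80 when each library was left out. In the layer 6 list the lower means came from Ctgf (0.76, 0.47 and -0.14 at day 1 and -0.55, -3.05 and -1.23 at day 7), while Foxp2 and Tle4 had fitted changes of 0.36 and 0.33, and the median of the 3 was 0.33 (0.43 after quantile normalization), which turned sign within batch 2 (-0.48) and when 1 library was left out (-0.14 to 0.37). In the layer 5 list Parm1 was 0.22, -0.51 and 0.21 at day 1 and 1.61, 2.59 and 1.69 at day 7, higher at day 7, while Pcp4 was 2.64, 2.61 and 0.43 at day 1 and -0.02, -0.12 and -1.54 at day 7, lower, both without overlap. Sox5 of that list, at 0.22, -0.64 and -2.33 at day 1 and -3.52, -3.13 and -2.40 at day 7, was lower without overlap, and Bcl6 had a fitted change of -1.53 ± 0.95 (SE). Cux1 of the upper layers was 2.90, 2.47 and 2.17 at day 1 and 2.14, 0.38 and 1.57 at day 7, lower without overlap.

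Microglial markers were high in every library. All 19 were measured, and their mean was 2.60, 2.29 and 2.67 at day 1 and 2.64, 2.99 and 2.80 at day 7. In every library this mean lay above that of the neuronal markers. The most abundant was Ctss, with a mean of 4.36 over the libraries, against 2.92 for Meg3, the most abundant neuronal marker. The lists hold different genes, so their means do not measure the share of each cell type, which was not tested. C1qb alone did not overlap, at 3.21, 3.07 and 3.11 at day 1 and 3.39, 3.37 and 3.93 at day 7. At an unadjusted p under 0.05, 1 marker was higher and 0 lower (5 higher after quantile normalization). The median change was 0.25 (0.33 after quantile normalization), with 17 of 19 genes above 0, against 4012 of 9931 over all genes. It ran from 0.06 to 0.31 when each library was left out. Fcgr1, H2-Aa and the interferon genes above are expressed by microglia. The part of microglial RNA in their values, and in the lower values of neuronal lists, was not tested.

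Oligodendrocyte markers were uneven, and replicates 8 and 11 held the high day 1 means. For 13 of 15 measured, the mean was -0.51, 2.62 and 1.50 at day 1 and 0.27, -0.08 and -0.32 at day 7, with Opalin and Fa2h not among the genes analysed here, and 5 genes were lower at an unadjusted p under 0.05. Their median change was -1.38 (-1.29 after quantile normalization), with 12 of 13 below 0, and lay between -2.11 and -0.38 without each library in turn. Aspa was -1.79, 2.19 and -0.39 at day 1 and -3.42, -2.90 and -4.09 at day 7 and Mal 2.29, 3.31 and 1.46 at day 1 and 0.53, -3.08 and 2.10 at day 7, and the days overlapped in Mal. Astrocyte markers (17 of 20) had means of 2.68, 2.15 and 1.28, and 1.94, 0.72 and 0.94, with Apoe the most abundant, 3 lower at that p (1 after quantile normalization), and Gfap and Aqp4 not among the genes analysed here. The astrocyte median change was -0.57 on both scalings, with 15 of 17 below 0, and ran from -0.85 to -0.21 when each library was left out. Oligodendrocyte precursor markers (4 of 8) had means of 0.39, 0.72 and 1.49, and 1.85, 1.40 and 0.52, led by Cspg4. Endothelial markers (16 of 16, led by Flt1) had 2.12, 1.69 and 1.90, and 2.10, 1.87 and 1.91, above the neuronal mean in every library except day 1 replicate 8. Pericyte and smooth muscle markers (8 of 8, led by Rgs5) had 1.07, 0.84 and 1.00, and 0.73, 1.91 and 0.57, and blood and immune markers (7 of 12, led by Lyz2) 0.89, 1.65 and 1.44, and 1.90, 1.50 and 0.78. Per the paper, myelin was removed with beads before sorting, and the sort kept live GFP-positive cells. The part of other cell types in the neuronal results was not tested.

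**Figure D3:**
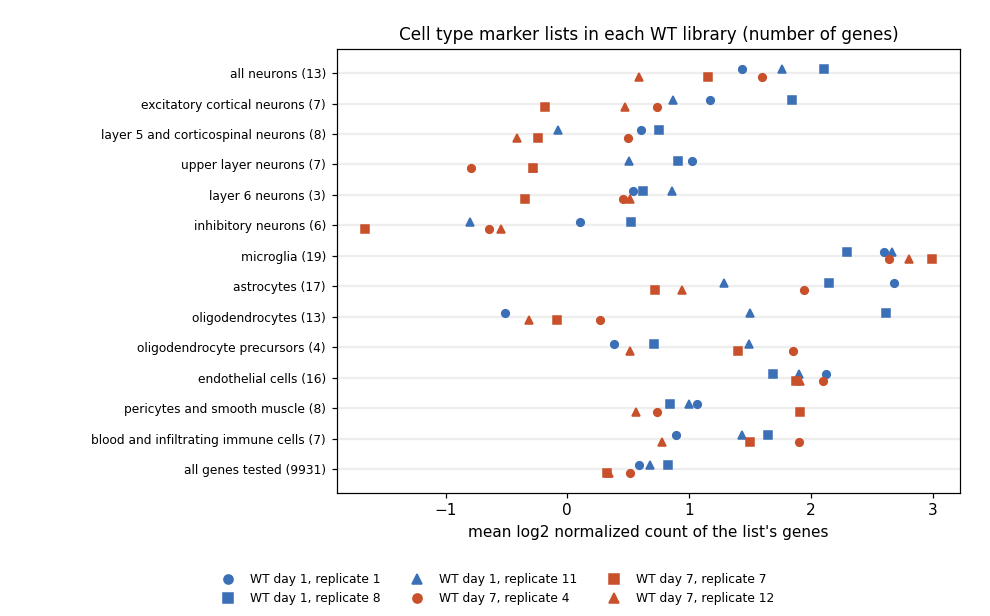
Mean log2 normalized count (x axis) of each list of cell type markers (y axis, number of genes in brackets) in each WT library, with day 1 in blue and day 7 in orange. The days overlap in most lists, but not in the excitatory, upper layer and layer 6 lists. The mean over all genes tested does not overlap either. Microglial markers lie between 2.29 and 2.99 in all libraries.

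The change between days in WT neurons was then set against that in REST cKO neurons, as a genotype by time interaction. At day 7 all WT libraries were labelled female and all REST cKO libraries male, so genotype and labelled sex cannot be told apart there. Of the REST cKO libraries at day 1, replicate 19 was female in batch 2 and replicate 25 male in batch 3. REST cKO replicates 2, 13 and 26 of day 7 belonged to batches 1, 2 and 3. In limma 0 of 9931 genes (0%) had an adjusted p under 0.1, the smallest was 0.322, and 633 genes (6.37%) had an unadjusted p under 0.05. As deposited, the median change in REST cKO neurons was -0.19 over all genes, against -0.23 in WT neurons. It was 0.04 against -0.95 in growth-associated genes and 0.32 against -1.21 in GABA receptors. It was below 0 in both genotypes in potassium channels (-0.52 against -1.27), glutamate receptors (-0.48 against -1.01) and axon guidance genes (-0.26 against -0.46). The difference of the lists was not tested. Without day 7 replicate 4, Hsp90aa1 passed (interaction of -2.70, adjusted p of 0.0713 in limma), and without day 7 replicate 7, Rag2 (-7.86, adjusted p of 0.0627).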

How the data were processed

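The deposited values are log2 normalized counts. Per the authors, reads were aligned with STAR to mm10, counted with Salmon and tximport, scaled as in DESeq2, corrected for batch with RUV and for sequencing metrics with a linear model, and genes with no counts in more than 50% of samples were removed. Read totals are not part of the values, so the depth of each library was not analysed here. Of 9955 rows, 24 had no symbol and were left out. The authors' own comparison columns (fold changes, p values and FDR) were not used. limma 3.58.1 (R 4.3.3) fitted 8 group means and the 2 sequencing components to 25 libraries, with a trend and Benjamini-Hochberg adjustment over 9931 genes. The code was checked on simulated data. Named genes were the 12 with the smallest p in each direction among genes whose days do not overlap, the genes of the study, and up to 4 members of each list with the smallest p (predicted genes and pseudogenes not named), except where a gene is said to be named after its values were seen. Members and lists were chosen with earlier results of these data known. Alternatives were other covariates, weights, filters, quantile normalization and leaving out each library. The solutions for genes that correlate with a component were added after seeing the data. Positions are from GENCODE vM21 (GRCm38).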

Additional observations from a re-analysis of the deposited data

How the results depend on the processing

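The count of 0 genes in limma held under every alternative except leaving out 1 library, where it ran from 0 to 10. For the interaction, run only without components, with a term for batch, with the solutions below and without each WT or REST cKO day 7 library, it ran from 0 to 1, again with 0 unless a library was left out. At an unadjusted p under 0.05, genes higher at day 7 went from 223 to 369 with quantile normalization (183 to 268 when leaving out 1 library), and genes lower went from 611 to 361, to 392 among genes whose mean was 0 or more, and 401 to 803 when leaving out 1 library. Lower genes without overlap went from 731 to 462 with that filter and to 504 with quantile normalization, and higher genes from 390 to 545 with the latter. With quantile normalization the sign turned for Sox11 (0.0608). With library weights the sign turned for Tle4 (-0.0331) and Olig1 (-0.58). With only the 13 WT libraries the sign turned for Olig2 (0.0187) and Hba-a1 (-0.57). Without components the sign turned for Olig1 (-0.33). With only the 6 libraries the sign turned for Olig1 (-0.33). With a term for batch the sign turned for Olig1 (-0.41) and Rgs5 (0.0101). With a term for sex the sign turned for Olig1 (-0.00826). Within batch 2 (1 library at each day) the sign turned for (among others) Jun (-0.17), Smad1 (0.29), Stat3 (-0.31), Gap43 (0.00448), Maff (2.56), Trp53 (-0.0295), Atf2 (0.46, correlates with a component), Foxo3 (-0.0521), Ptprs (0.18), Ppp1r15a (-0.39), Ifit3 (-0.96), Plxna1 (-0.64), Rpl24 (0.51), Rpl21 (-0.15), Ndufaf2 (0.0535), Psmd12 (-0.0466), Psma4 (-0.71), Meg3 (0.48), Tbr1 (0.31), Tle4 (-0.48), Tmem119 (-0.14), Mal (0.64), Cspg4 (-0.46), Olig2 (0.53), Olig1 (-4.53), Ly6a (-0.0573), Itm2a (-0.21), Vtn (0.88), Rgs5 (0.35), Ccr2 (-2.21) and Tsix (0.17). Within batch 1 the sign turned for Atf3 (0.33), Sox11 (0.61), Egr1 (-0.14), Hbb-bt (0.10), Hba-a1 (-0.72), Xist (0.19) and Kdm5d (-0.42). When leaving out 1 library the sign turned for Atf3 (-1.86 to 0.32), Sox11 (-1.19 to 0.40), Tbr1 (-2.36 to 0.43), Tle4 (-0.14 to 0.74), Npy (-2.27 to 0.62), Olig2 (-1.37 to 0.36), Olig1 (-0.99 to 0.77), Vtn (-0.86 to 0.46), Rgs5 (-0.85 to 0.50), Hbb-bt (-2.50 to 0.38), Hba-a1 (-0.21 to 1.24), Tsix (-1.64 to 0.0102) and Kdm5d (-0.0378 to 0.80). The solutions for genes that correlate with a component, added after seeing the data, turned the sign of Met (from 0.12 to -0.26) and Hdac7 (from 0.0801 to -0.26), named after their values were seen, and of no other gene. Replicate numbers are unique to each library. No paired analysis was possible because no label pairs the libraries. The effect of the depth of each library was not tested. Where results turned, the cause was not tested.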
